A study of Mus musculus with 4 samples.

Results

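The genes of antigen presentation by major histocompatibility complex (MHC) class II were described in single immune cells of mouse tumours. The set was a list of 10 gene symbols, all of which were found among the 27998 genes of the deposited matrices: H2-Aa, H2-Ab1, H2-Eb1, Cd74, Ciita, H2-DMa, H2-DMb1, H2-DMb2, H2-Oa and Ctss. Tumours had been transplanted into wild-type mice of the inbred strain 129S6, and the mice were given antibody by intraperitoneal injection on days 3, 6 and 9, at 200 µg. The isotype control group received rat IgG2a. Another group received clone RMP1-14 against PD-1, the third group clone 9D9 against CTLA-4, and the fourth group both of these (the combination). PD-1 and CTLA-4 are receptors that restrain T cells. From collagenase digests of the tumours, live cells with CD45, the common surface protein of white blood cells, were taken by flow sorting. Their transcripts were counted by a droplet method that tags 3′ ends with unique molecular identifiers (UMIs, 1 for each captured transcript). Each group was 1 library, so treatment and library cannot be told apart and no test between groups was possible. The sources used here give neither the number of mice in a library nor the tumour line. Wherever 4 values follow each other below, the control comes first, then anti-PD-1, then anti-CTLA-4 and last the combination, and 3 ratios to control follow that order too.

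The libraries held 3793, 3417, 3336 and 3945 cells of the authors' cluster list, 14491 in all, with 11176246 to 13374294 UMIs per library and a median of 2549 to 2991 UMIs per cell. Pairs of libraries shared 12 to 25 cell barcodes. The authors assigned each cell to 1 of 19 numbered clusters, and the clusters were named here from marker genes. Clusters 1, 2, 4, 7 and 15 made up a macrophage/monocyte-like class of 6056 cells, in which all 13 markers of that list were seen in at least 25% of cells. Cluster 11 was conventional dendritic-like (349 cells), cluster 17 migratory dendritic-like (132 cells) and cluster 16 plasmacytoid dendritic-like (157 cells). Clusters 17 and 16 had all 7 of their markers in at least 25% of cells, whereas cluster 11 had only 3 of 6 type 1 and 3 of 7 type 2 markers at that share. Of the 13 macrophage/monocyte markers, 8 reached that share in cluster 11, 2 in cluster 17 and 6 in cluster 16. T cell-like clusters (3829 cells) and the NK cell-like cluster (993 cells) served as a gauge of free RNA, which does not come from the cell it is counted in. Cluster 0 (2319 cells) carried macrophage markers but was led by other genes (Gm9733, Gpr141 and Il1r2), and kept its number. The macrophage class was not made of the same clusters in each library. Cluster 1 gave most of its cells in the control library (1075 of 1521), cluster 2 the largest share in the treated libraries (549 of 1256, 435 of 1411 and 688 of 1868).

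Class II molecules are heterodimers of an alpha and a beta chain that carry peptides from the endosomes to the cell surface, where CD4+ T cells read them. The invariant chain, encoded by Cd74, fills the groove of the new molecule and is cut down by proteases, cathepsin S (Ctss) in particular, to a short peptide called CLIP. The H2-DM heterodimer takes CLIP out and edits which peptide is bound, and H2-DO restrains H2-DM. CIITA, the product of Ciita, is the master activator of these genes. It acts through factors already bound to the X, X2 and Y boxes in their promoters, and interferon-gamma induces it, with IRF1 among the factors involved. Dendritic cells are best known for priming naive T cells with class II, and tumour macrophages carry class II to varying degrees. Mice of the H-2b type, 129 strains among them, do not show the class II molecule I-E on their cells, because its alpha chain gene is defective. The transcript of its beta chain gene, H2-Eb1, is made all the same.

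Of the 10 genes, 7 lie on chromosome 17 in the mouse MHC (GRCm38, GENCODE M21). In order these are H2-Oa (34092340 to 34095234), H2-DMa (34119541 to 34139101), H2-DMb2 (34143307 to 34151555), H2-DMb1 (34153072 to 34160230), H2-Ab1 (34257689 to 34269419), H2-Aa (34282744 to 34287823, the only one on the minus strand) and H2-Eb1 (34305867 to 34316674). Ctss is on chromosome 3 (95526786 to 95556403) and Ciita on chromosome 16 (10480059 to 10528418). H2-Oa, H2-DMa and Ciita overlap a gene on the other strand (BC051537, Brd2 and Dexi) and H2-Eb1 overlaps Gm20513, so reads of these partners could enter the counts where strand was not used. On the same strand, H2-DMa overlaps CR974462.3, Ctss overlaps Hmgb1-ps5 and Cd74 overlaps Mir5107, and strand does not tell these apart. H2-DMb1 and H2-DMb2 are near-identical copies, with transcripts 94.7% identical over 1218 aligned bases. In their last 400 bases, where 3′ reads fall, identity was 88.5% over 234 aligned bases, and no stretch of 98 bases of H2-DMb2 was found whole in H2-DMb1. The sources used here do not say how reads of either gene were counted, so the split between these copies is uncertain.

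Promoter sequences of 7 of the 10 genes were matched in RefSeq (GRCm38.p6, 250 bases before to 50 after the start). They were searched on both strands for the Y box core TGATTGG, for an X and X2 box (AAC, any 1 base, then GATGATG), for the X2 core TGACGTCA and for an interferon element (GAAA, any 2 bases, then GAAA). The windows printed here hold the letters that the class II activator complex is known to read, or the interferon element. They come from genes whose levels were alike in macrophages and conventional dendritic cells (H2-Aa, H2-Eb1), higher in dendritic cells (H2-DMb2) and lower there (Ctss). Capitals mark the motif matches, and each run is 5′ to 3′ on the gene's strand. The windows are chr17:34287849-34287923 on the minus strand for H2-Aa and, on the plus strand, chr17:34305756-34305830 for H2-Eb1, chr17:34145107-34145181 for H2-DMb2 and chr3:95526715-95526785 for Ctss.
H2-Aa: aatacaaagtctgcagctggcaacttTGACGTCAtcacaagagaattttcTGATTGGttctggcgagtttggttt
H2-Eb1: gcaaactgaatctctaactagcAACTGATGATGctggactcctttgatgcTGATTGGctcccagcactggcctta
H2-DMb2: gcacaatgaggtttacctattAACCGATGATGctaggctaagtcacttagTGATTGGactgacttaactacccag
Ctss: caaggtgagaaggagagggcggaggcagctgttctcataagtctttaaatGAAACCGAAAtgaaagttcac
The Y box core was present on the sense strand in H2-Aa, H2-Eb1, H2-Oa, H2-DMb1 and H2-DMb2, and on either strand in 7.82% of all 32851 promoters. The X and X2 box was present in H2-Eb1, H2-DMb1 and H2-DMb2, and in 20 promoters (0.0609%) in all. Only 3 of the 32851 promoters held that box together with a Y box core on the sense strand, and they were those of these 3 genes. The gap between both boxes was 18 bases in H2-DMb1 and H2-DMb2 and 17 in H2-Eb1. H2-Aa had the X2 core, which 1.79% of promoters hold. The interferon element was found in Ctss alone among the matched genes, 21 bases before the start, and in 3.44% of all promoters. H2-DMb1 and H2-DMb2 thus held both boxes at the same spacing while, as given below, their levels were unlike. The H2-DMb2 window lies in an intron of the GENCODE gene, whose annotated start is upstream of the RefSeq start. A match to these letters is a description and not a measured binding site.

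The chains of I-A and I-E and the invariant chain were among the abundant transcripts of the myeloid cells, and conventional dendritic cells did not stand above macrophages in any of them on average over the libraries. H2-Aa, the alpha chain of I-A, stood at 16097, 15878, 16287 and 15140 CPM in macrophages of the 4 libraries, CPM being the gene's summed UMIs per 1000000 UMIs of the class. In cluster 11 it stood at 16146, 15363, 15039 and 14489 CPM, which overlaps the macrophage range, and the mean log2 ratio of cluster 11 over macrophages was -0.06 ± 0.05 (SD over the 4 libraries, here and below). H2-Ab1, the beta chain of I-A, had 19276, 19846, 21143 and 20759 CPM in macrophages and 19346, 19995, 20069 and 18878 in cluster 11 (-0.05 ± 0.07). H2-Eb1 had 9981 to 11711 CPM in macrophages and 10695 to 11500 in cluster 11 (0.00 ± 0.08). The ranges overlapped for each chain. For Cd74, which lies on chromosome 18 (60803848 to 60812652), the levels were 46375, 45842, 46753 and 44987 CPM in macrophages and 45871, 44655, 42442 and 42400 in cluster 11 (-0.07 ± 0.06). The invariant chain was the most abundant of the 10 in both classes. These comparisons between clusters are descriptions, since the clusters were formed from the same genes. UMIs of 3′ ends count each transcript once and are not divided by length.

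The other dendritic clusters had lower levels of the chains. In cluster 17, whose cells carried Ccr7 and Fscn1 as dendritic cells do on their way to lymph nodes, H2-Aa stood at 10835, 11023, 9804 and 9098 CPM and H2-Ab1 at 6759, 6249, 6149 and 8573 CPM. Every library was below its own macrophages for both genes, with mean log2 ratios of -0.64 ± 0.11 for H2-Aa and -1.56 ± 0.22 for H2-Ab1. H2-Eb1 (-0.83 ± 0.08) and Cd74 (-1.13 ± 0.10, at 18944 to 22377 CPM) lay between these. Cluster 16 carried Siglech and other genes of plasmacytoid dendritic cells, which are known for making type I interferon, and its chain levels varied more between libraries. H2-Ab1 stood there at 9552, 3257, 7881 and 3982 CPM and Cd74 at 26281, 12763, 23826 and 14913 CPM, high in the control and anti-CTLA-4 libraries and low in the others. The mean log2 ratios over macrophages were -1.86 ± 0.76 for H2-Ab1 and -1.31 ± 0.49 for Cd74.

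**Figure D1:**
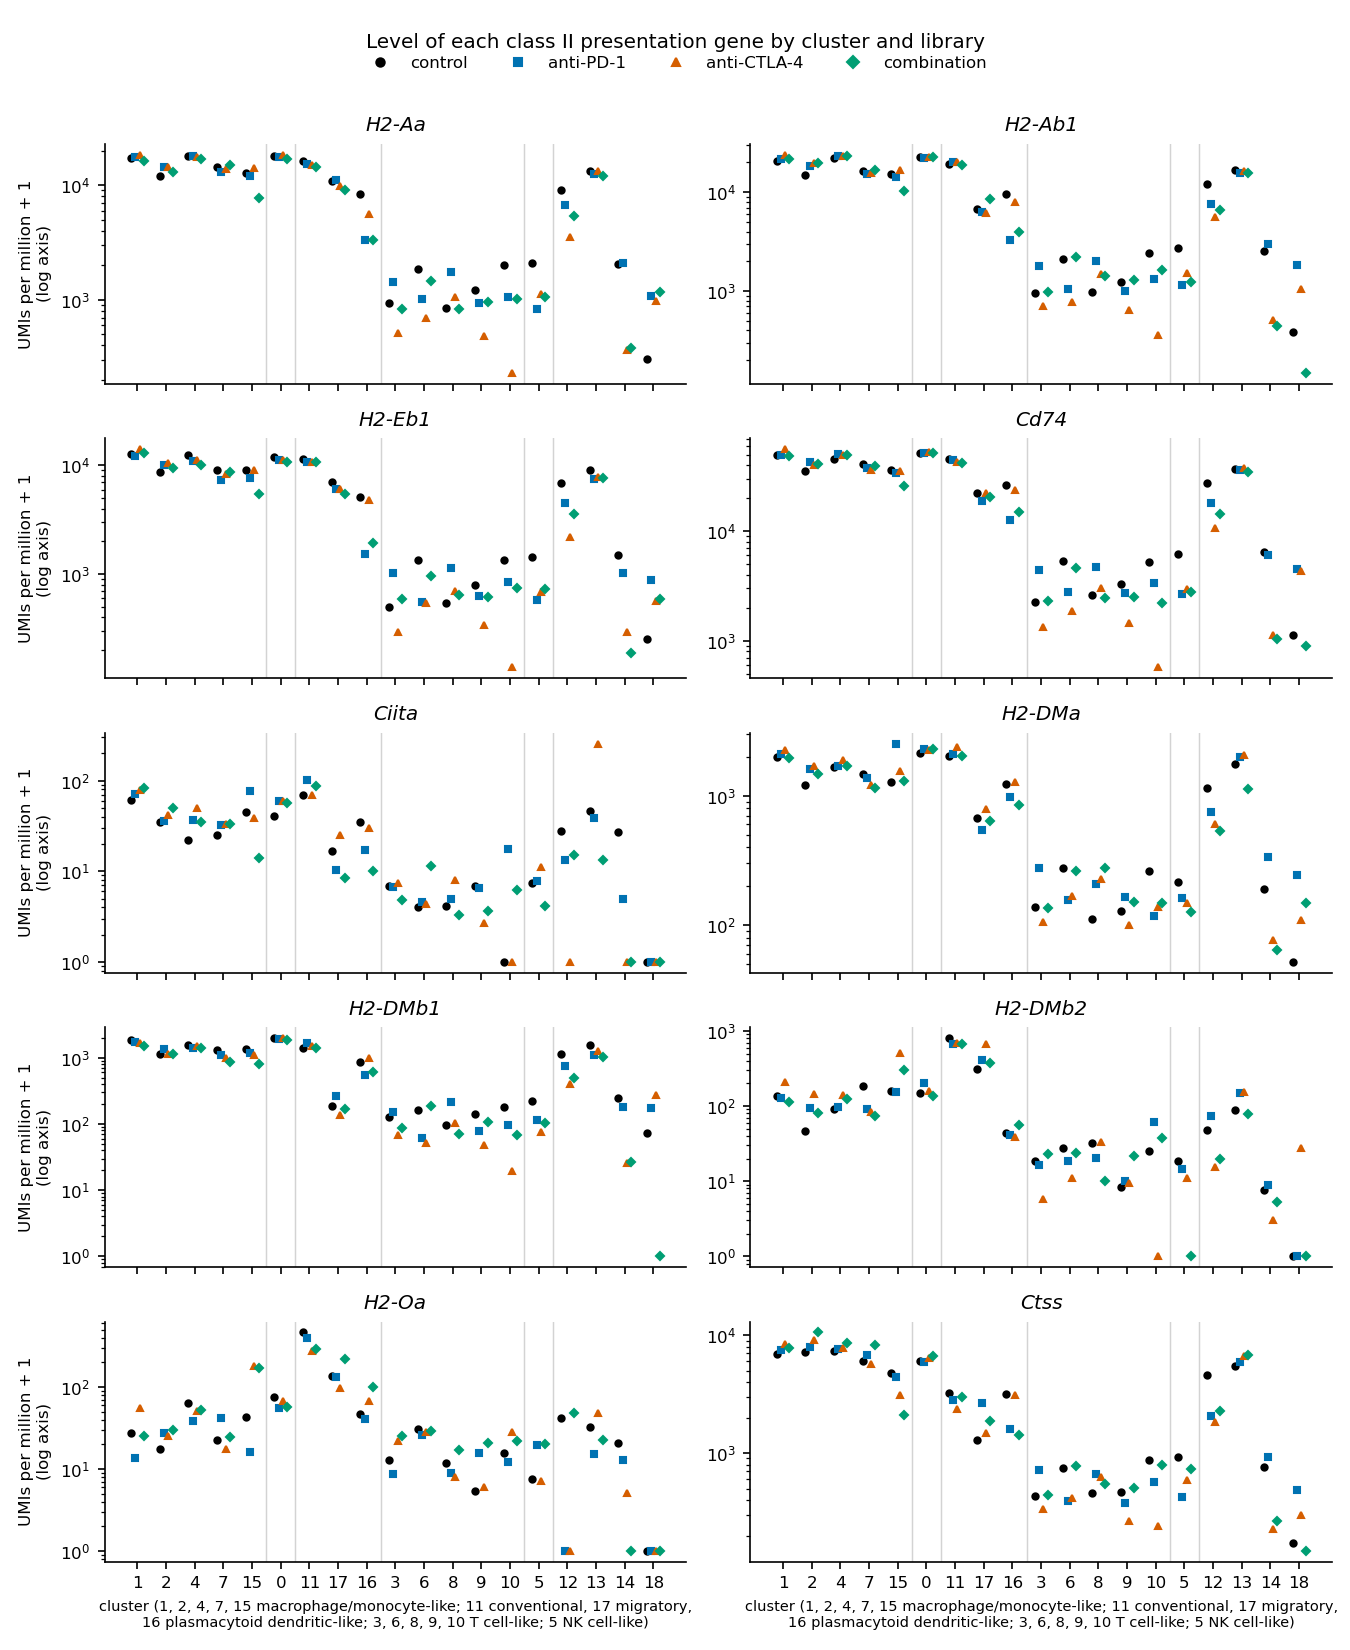
Level of each class II gene in the authors' 19 clusters (CPM plus 1, log axis), with 1 point for each of the 4 libraries. The macrophage/monocyte-like clusters, cluster 0 and cluster 11 sit close together for the chains and Cd74, while H2-Oa is highest in cluster 11, at 278.6 to 464.6 CPM.

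Ordered by mean Cd74, cluster 0 came first (51928 CPM, SD 631 over 4 libraries), followed by cluster 1 (51173, SD 3402), cluster 4 (48960, SD 2079), cluster 11 (43842, SD 1714), cluster 2 (40163, SD 3023), cluster 7 (38420, SD 1975), cluster 13 (36534, SD 1238) and cluster 15 (32723, SD 4790). The ranges over the 4 libraries overlapped between neighbours in this order except between clusters 4 and 11. Clusters 17, 16 and 12 followed with means of 17680 to 21063 CPM, below the whole range of cluster 15, and overlapped one another. The highest libraries of clusters 16 (26281 CPM) and 12 (27383 CPM) lay above the lowest of cluster 15 (25667 CPM). Cluster 12 was neutrophil-like, and every T cell-like cluster, the NK cell-like cluster and clusters 14 and 18 had means of 2491 to 3663 CPM. Cluster 0 thus carried Cd74 at the level of cluster 1, and its H2-Aa, at 17735 CPM (SD 738), matched the 17377 CPM (SD 930) of cluster 1. Cluster 13, which had both T cell and macrophage markers, was not named.

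Lymphoid cells were used as a gauge of the free RNA under these values, and the source of the class II UMIs in them was not tested. T cell-like clusters held Cd74 at 3430, 3568, 1603 and 2818 CPM, and after thinning each cell to 1000 UMIs a Cd74 UMI was still seen in 57.3%, 59.1%, 43.4% and 47.5% of them (76.4%, 78.6%, 73.5% and 67.8% unthinned). These cells had a median of 1698 to 2345 UMIs, against 3253 to 4296 in macrophages. As a percentage of the macrophage level, the median over the 10 genes was 7.88%, 8.0%, 4.23% and 7.77%. Genes that T cells are not known to make gave lower percentages than that median in each library. Lysozyme (Lyz2) stood at 6.19%, 7.43%, 3.02% and 5.47%, Apoe at 7.07%, 4.59%, 3.01% and 3.07%, and complement C1q lower (C1qa 1.70% to 4.43%). Without T cell-like cells that carried a C1q or Lyz2 UMI, the median over the 10 genes was 2.45%, 3.75%, 2.33% and 2.66%. In the NK cell-like cluster the median over the 10 genes was 13.1%, 6.82%, 7.10% and 7.21%, highest in control. There Lyz2 (16.2%, 3.5%, 9.71% and 6.00%) and C1qa (10.1%, 2.18%, 6.69% and 9.75%) were lowest with anti-PD-1. H2-Oa stood apart at 31.5% to 59.0% of the macrophage level in T cell-like clusters, on 23 to 67 UMIs per library. The H2-Oa level of macrophages thus was less far above that of T cell-like cells than that of the other 9 genes of the list in the same library. The anti-CTLA-4 library had the lowest T cell level, and there 7 of the 10 genes were more than 1.5-fold lower than in the control library's T cells (13.7% of all genes tested were lower by that much, and 10.6% higher). Lyz2 (3.02%) and C1qa (1.70%) were at their lowest in that library too. With anti-PD-1 and the combination 1 gene each was higher in T cell-like cells and none lower, Ciita on 11 UMIs against 11 (0.62) and H2-Oa on 67 against 34 (0.85), where 10.0% and 9.24% of genes were higher and 9.93% and 11.4% lower.

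Counted cell by cell, the chains and Cd74 together gave a median of 96, 93, 93 and 90 UMIs per 1000 in macrophages and 88, 92, 85 and 86 in cluster 11. Cells varied widely in both, with a 10th to 90th percentile of 49 to 129 in control macrophages and 41.3 to 127.9 in control cluster 11. T cell-like cells had a median of 1 to 2. Clusters 17 (17 to 26) and 16 (19 to 26) had low medians. The 90th percentiles reached 87 to 100 in cluster 17 and were 83.2, 37.6, 80.2 and 38.1 in cluster 16. Cluster 17 thus held a few cells at the macrophage level among many that were lower. The neutrophil-like cluster 12 was more uneven still, with medians of 2 to 6 and 90th percentiles of 68 to 96.9. Among cells of the macrophage class, 0.0562% in the combination library and none in the other libraries had no UMI of these 4 genes at that depth.

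**Figure D2:**
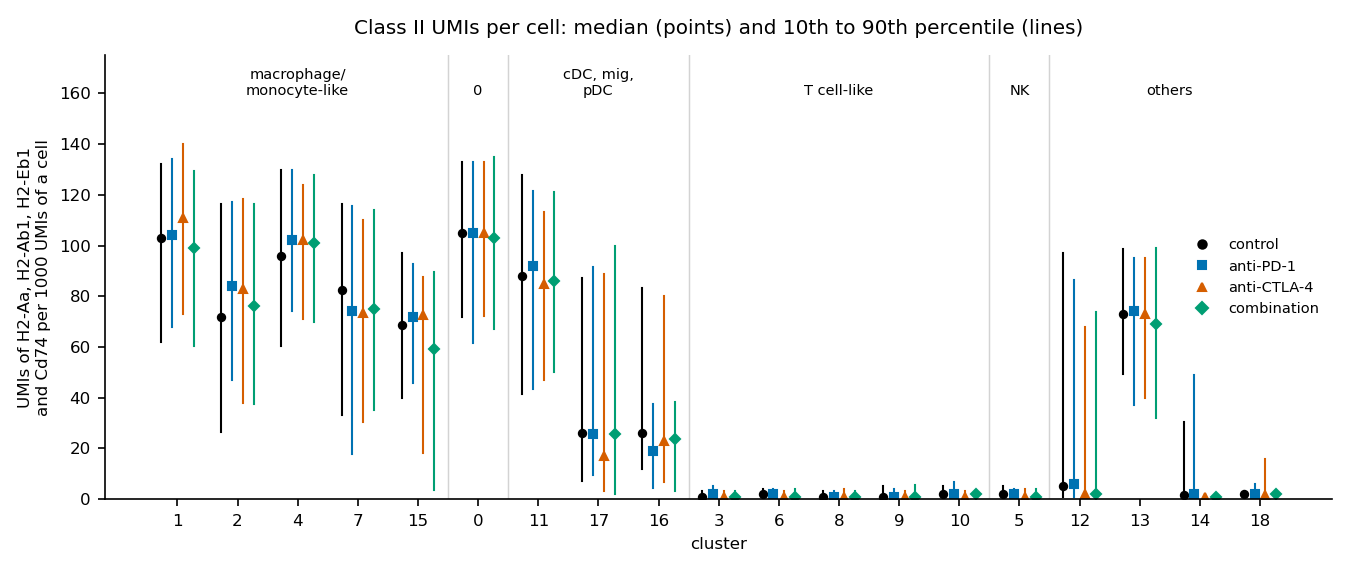
UMIs of H2-Aa, H2-Ab1, H2-Eb1 and Cd74 per 1000 UMIs of a cell, by cluster and library (points are medians, lines run from the 10th to the 90th percentile over cells). Macrophage, cluster 0 and cluster 11 medians lie far above the T cell-like ones, and clusters 17 and 12 join a low median to a high 90th percentile. Cluster 16 does so in the control and anti-CTLA-4 libraries only.

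Among the genes that act on the peptide groove, the dendritic and macrophage classes were unlike in H2-DMb2 and H2-Oa. Past 1.5-fold and taking the mean over libraries, 3 of the 10 genes were higher in cluster 11 than in macrophages (H2-Oa, H2-DMb2 and Ciita) and 1 was lower (Ctss), where 15.1% of all 8119 genes tested were higher and 20.9% lower. H2-DMb2, one of the beta chain genes of the H2-DM editor, stood at 803.7, 665.2, 689.0 and 676.2 CPM in cluster 11 and at 130.3, 103.8, 159.0 and 102.9 CPM in macrophages. The lowest dendritic library was above the highest macrophage library, and the mean log2 ratio was 2.54 ± 0.28. After thinning to 1000 UMIs it was seen in 48.8%, 48.1%, 34.2% and 37.1% of cluster 11 cells, in 7.7% to 12.9% of macrophages and in 0.3% to 1.1% of T cell-like cells (67.9% to 81.7%, 20.8% to 32.1% and 1.9% to 2.4% unthinned). H2-DMb1, the other beta chain gene, had 1384, 1679, 1531 and 1397 CPM in cluster 11 and 1710, 1446, 1369 and 1235 in macrophages. Its direction differed between libraries, being lower in cluster 11 in the control library only (mean log2 ratio 0.06 ± 0.25). H2-DMa, the alpha chain of the editor, was slightly higher in cluster 11 in each library, at 2027, 2110, 2379 and 2040 CPM against 1804, 1743, 1835 and 1568 (0.30 ± 0.10).

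H2-Oa, the alpha chain of the H2-DM inhibitor H2-DO, was the gene with the widest gap. It stood at 464.6, 392.6, 278.6 and 289.8 CPM in cluster 11 (185, 144, 93 and 105 UMIs) and at 28.4, 26.6, 40.6 and 37.8 CPM in macrophages. No macrophage library came near the dendritic range, and the mean log2 ratio was 3.41 ± 0.64. Its beta chain partner H2-Ob was higher as well (2.90, at 89.9 to 177.2 CPM in cluster 11 and 13.1 to 24.0 in macrophages). H2-Oa was among the 10 leading genes of cluster 11, so it had a part in how that cluster is set apart. B cells are a known source of H2-Oa, and cells with a B cell marker UMI numbered 9, 5, 5 and 8 in cluster 11 and held 11, 4, 3 and 8 of its H2-Oa UMIs. In cluster 17 H2-Oa was at 96.8 to 221.9 CPM (12 to 30 UMIs) and H2-DMb2 at 310.5, 404.1, 669.8 and 369.8 CPM, with mean log2 ratios of 2.13 ± 0.56 and 1.80 ± 0.36 over macrophages. Of the 83 H2-DMb2 UMIs of cluster 17 in the anti-CTLA-4 library, 80.7% came from 1 cell. Cluster 16 had 4 to 10 UMIs of H2-DMb2 and 5 to 11 of H2-Oa per library, so their place there rests on few counts.

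Cathepsin S ran the other way. Ctss stood at 6637, 7581, 7929 and 8878 CPM in macrophages and at 3210, 2833, 2370 and 2959 CPM in cluster 11, a mean log2 ratio of -1.45 ± 0.30. The other lysosomal proteases of the list were lower in cluster 11 by more: Ctsl (-4.17), Lgmn (-3.38), Ctsd (-2.23) and Ctsb (-2.20). Ctss was lower again in cluster 17, at 1282, 2678, 1469 and 1879 CPM (-2.13 ± 0.43). In cluster 16 it was at 3194, 1584, 3103 and 1434 CPM (-1.82 ± 0.74). Ifi30, the reductase that opens disulphide bonds of antigens, did not share this pattern in cluster 17, where it was 0.43 above macrophages on the log2 scale.

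Ciita was sparse everywhere. Cluster 11 gave 27, 37, 23 and 31 UMIs (67.8, 100.9, 68.9 and 85.6 CPM), and macrophages had 53.1, 44.5, 53.3 and 44.1 CPM. The mean log2 ratio was 0.74 ± 0.41, and it was 0.58, just under the 1.5-fold line, without the anti-PD-1 library. Cluster 17 held only 1 to 3 Ciita UMIs per library. Its mean log2 ratio of -1.50 over macrophages rests on those counts.

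**Figure D3:**
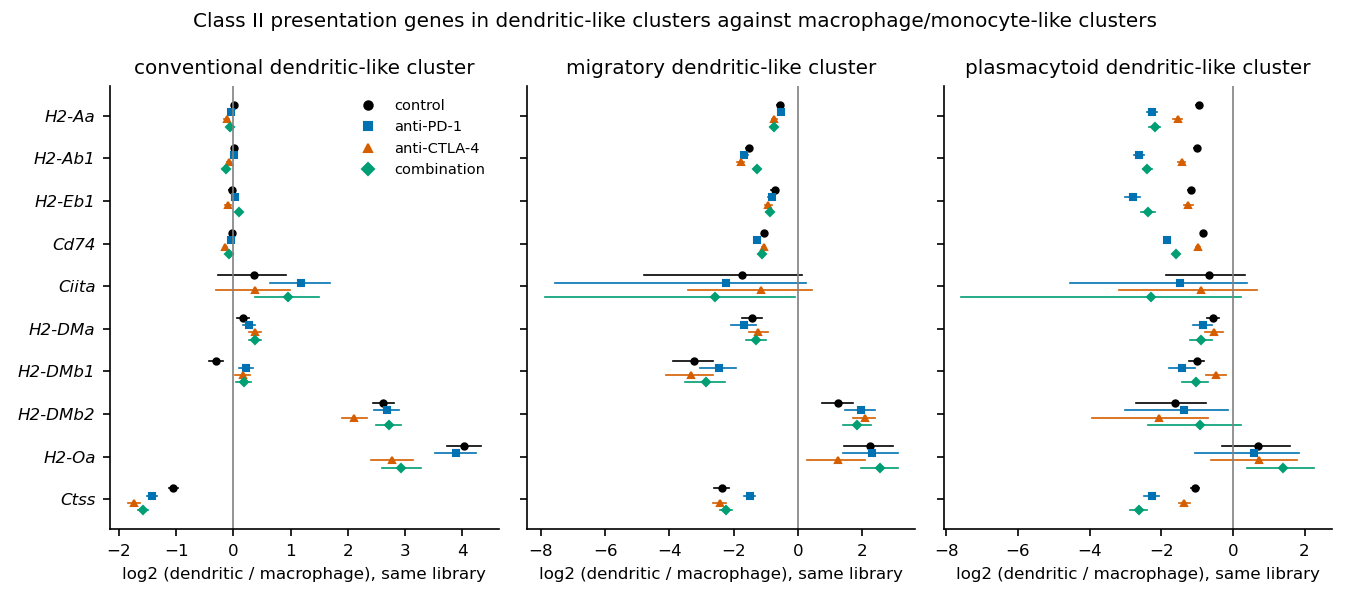
Log2 ratio of each gene in 3 dendritic-like clusters over the macrophage/monocyte-like class of the same library, with 95% intervals for counting error. In the conventional cluster H2-DMb2 and H2-Oa lie well to the right and Ctss to the left while the chains lie near 0, and in the plasmacytoid cluster the chains of the anti-PD-1 and combination libraries are the lowest.

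For clusters 17 and 16 most of the 10 genes were lower than in macrophages. In cluster 17, 2 were higher and 8 lower past 1.5-fold, where 22.4% and 26.9% of all genes tested were. H2-DMb1 was the lowest of the 10 relative to macrophages, with 17 to 28 UMIs per library and a mean log2 ratio of -2.93 ± 0.39. In cluster 16, 1 was higher (H2-Oa, 0.95 ± 0.35) and 9 were lower, where 34.9% and 17.7% of genes were. There Ciita had 1 to 8 UMIs per library, H2-DMb2 4 to 10 and H2-Oa 5 to 11, so these 3 of the counted genes rest on few UMIs. The median of the 10 genes was 0.03 in cluster 11, -1.26 in cluster 17 and -1.34 in cluster 16, beside 0.02, -0.04 and 0.30 over all genes. In cluster 0, 1 of the 10 was higher (H2-Oa, 0.93 ± 0.38) and none lower, where 5.84% and 10.0% of genes were. Against control, none of the 10 was past 1.5-fold in cluster 0 in any treated library, where 11.4%, 12% and 12.2% of genes were higher and 9.44%, 11% and 13.3% lower. Ciita came nearest, at 0.58, 0.55 and 0.49.

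The wider class II pathway was counted over a list of 25 genes, of which 24 are in the gene table. Of 21 tested, 5 were higher and 5 lower in cluster 11 than in macrophages, 7 and 8 in cluster 17, and 6 and 8 in cluster 16. Of all genes tested, 15.1% were higher and 20.9% lower in cluster 11, 22.4% and 26.9% in cluster 17, and 34.9% and 17.7% in cluster 16. The ones higher in cluster 11 were H2-Ob, Jak2 (1.90, a kinase of the interferon-gamma receptor), Lag3 (1.82, an inhibitory receptor that binds class II), Cd83 (1.33, which keeps class II at the surface by opposing the ligase MARCH1) and Nfya (0.94, a Y box factor). Jak2 ranged from 0.90 to 3.07 over the libraries (SD 0.90) and Nfya from 0.24 to 1.57 (SD 0.67), so their sizes are uncertain. The lower ones were the proteases above and the X box factor gene Rfxap (-0.65 ± 0.90, from -1.86 to 0.31, and -0.25 without the anti-PD-1 library). In cluster 17 Cd83 stood at 1107, 1024, 992.5 and 488.2 CPM, 3.70 above macrophages on the log2 scale, and March1 was 3.11 below. The March1 ratio varied widely between libraries, from -4.44 to -1.63 (SD 1.32), so its size is uncertain. Cluster 17 thus had the transcript of the stabiliser high and those of the chains low. March1 was below macrophages in each library. The minimum of 20 counts held for both sums together, so this may rest on few UMIs in cluster 17. In cluster 16, Lag3 was the gene farthest above macrophages, at 291.5, 328.1, 507.5 and 438.3 CPM against 5.8 to 7.9 CPM (5.85). Cd83 (-2.62) and Lgmn (-2.55) were the farthest below. Both varied widely between libraries, Cd83 from -3.91 to -0.61 (SD 1.41) and Lgmn from -3.83 to -1.36 (SD 1.03), so their sizes are uncertain.

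In macrophages, class II levels of the treated libraries lay close to those of the control library. None of the 10 genes was past 1.5-fold in any treated library, where 25.3%, 28.4% and 31.9% of all genes tested were (8.41%, 8.91% and 8.30% higher, 16.8%, 19.5% and 23.6% lower). The median log2 ratio of the 10 was -0.07, 0.02 and -0.15, and over all genes -0.12, -0.16 and -0.21. H2-Aa (-0.02, 0.02 and -0.09) and Cd74 (-0.02, 0.01 and -0.04) lay closest to control. H2-DMb1 was lower in each treated library, at -0.24, -0.32 and -0.47 (95% counting interval of the last -0.51 to -0.43). Ctss was higher in each treated library, by 0.19, 0.26 and 0.42. H2-Oa was higher with anti-CTLA-4 (0.52, interval 0.23 to 0.81) and the combination (0.41, 0.14 to 0.69) but not with anti-PD-1 (-0.10, -0.43 to 0.23). Within clusters H2-Oa did not keep these directions. With anti-CTLA-4 it was at 1.04 in cluster 1 and 0.55 in cluster 2 but at -0.35 in cluster 4 and -0.38 in cluster 7. With the combination it was at -0.13, 0.82, -0.31 and 0.15 in those clusters, and in cluster 15 at 2.07 and 1.99 in these libraries on 14 and 13 UMIs. These intervals cover counting error only, and they leave out the spread between mice. The 3 comparisons share the control library. Scaling by median-of-ratios size factors in place of the class total shifts every gene up by 0.11, 0.15 and 0.22, and with it Ctss (0.64) and H2-Oa (0.63) come past 1.5-fold in the combination library and H2-Oa (0.67) in the anti-CTLA-4 library.

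Between treated libraries, the combination differed from anti-PD-1 past 1.5-fold in none of the 10 (6.96% of genes were higher and 12.5% lower, 19.4% together). From anti-CTLA-4 it differed in 1, H2-DMb2, which was lower (-0.63, where 11.5% of genes were lower and 7.30% higher, 18.8% together). That value falls under the line with size factors (-0.57), with cluster 0 joined to the class (-0.58) and as a mean within clusters 1, 2, 4 and 7 (-0.52).

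The macrophage clusters that make up the class were not alike. In cluster 2, whose leading genes include Apoe, Arg1 and Ccl8, H2-Ab1 was above control by 0.30, 0.42 and 0.40 on the log2 scale, Cd74 by 0.25, 0.18 and 0.21, and H2-DMa by 0.40, 0.48 and 0.29. Each of the treated libraries was thus higher in cluster 2 for these genes. Cluster 1 had H2-Aa at 0.04, 0.10 and -0.08 and H2-DMb1 at -0.12, -0.17 and -0.30, whereas in cluster 2 H2-DMb1 was at 0.25, 0.01 and 0.00. In cluster 7 H2-DMb1 was at -0.22, -0.38 and -0.60 and H2-DMb2 at -1.02, -1.17 and -1.34, while in cluster 2 H2-DMb2 was at 1.03, 1.64 and 0.82. H2-DMb2 was therefore above control in cluster 2 and below it in cluster 7, a difference that was not tested. In cluster 15, which gave 126 cells in the control library and 9 to 14 in the others, the combination had H2-Aa at -0.72, H2-Eb1 at -0.74 and Ctss at -1.18. It held 126 of the 1521 cells of the class in the control library.

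**Figure D4:**
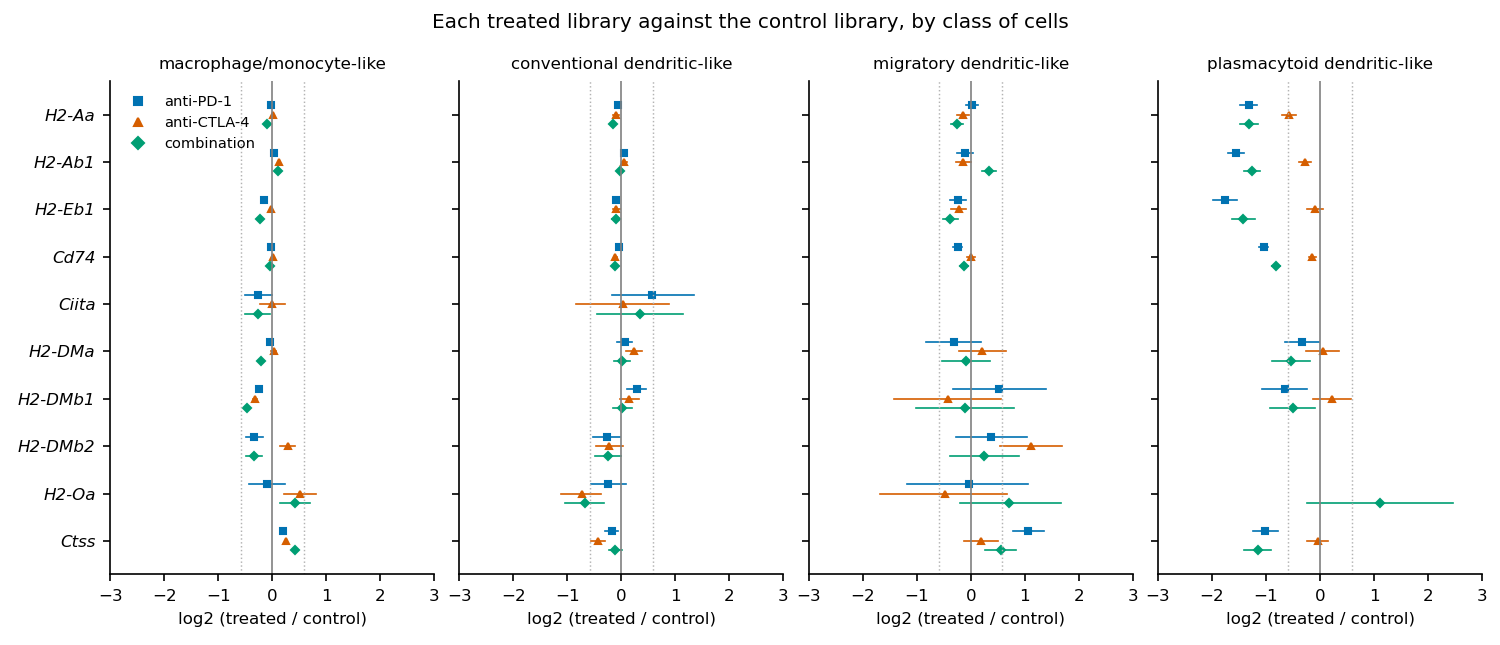
Log2 ratio of each treated library over the control library for the 10 genes in 4 classes of cells, with 95% intervals for counting error and dotted lines at 1.5-fold (genes with under 20 counts over the 2 sums together are not drawn). Macrophages stay between the lines for all 10 genes, and the chains and Cd74 of the plasmacytoid cluster lie past the lower line with anti-PD-1 and the combination.

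Upstream genes of the interferon-gamma pathway were less even in macrophages. Irf1 stood at 100.9, 187.9, 155.9 and 135.2 CPM. It was past 1.5-fold above control with anti-PD-1 (0.90) and anti-CTLA-4 (0.63). The receptor chain Ifngr1 was lower in each treated library, at 402.7, 211.2, 214.2 and 202.8 CPM (-0.93, -0.91 and -0.99). Within cluster 1, the same 3 ratios of Ifngr1 were -0.62, -0.51 and -0.56. Of the pathway genes reported here, those lower past 1.5-fold numbered 3 of 23, 5 of 22 and 6 of 22 in the treated libraries, where 16.8%, 19.5% and 23.6% of all genes tested were lower. Those higher numbered 2 (H2-Eb2 and Irf1), 1 (Irf1) and 2 (Ctsd and Ctsl), where 8.41%, 8.91% and 8.30% of all genes were. The protease Lgmn was lower with anti-CTLA-4 (-0.86) and the combination (-1.18), and Ctsd was higher with the combination (1.34, at 1275 CPM against 505.4 in control). Within clusters 1, 2, 4 and 7, Ctsd was above control in the combination by 1.04, 0.68, 0.80 and 0.88. The largest ratio, H2-Eb2 with anti-PD-1 (3.03), rests on 35 UMIs against 6.

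In conventional dendritic cells the chains also stayed close to control. Past 1.5-fold, none of the 10 genes differed with anti-PD-1 and 1 was lower with each of the others, H2-Oa, where 30.3%, 31.0% and 33.6% of all genes were past that fold (17.3%, 13% and 12.5% higher, 13%, 18% and 21.1% lower). H2-Oa was at -0.24 (-0.57 to 0.08), -0.74 (-1.11 to -0.37) and -0.68 (-1.04 to -0.33). Ctss was at -0.18, -0.44 and -0.12 and H2-DMb2 at -0.27, -0.22 and -0.25, below control in each treated library. Macrophage markers were present in cluster 11, where all 13 were detected and their summed level was 4518, 5213, 6420 and 7027 CPM, lowest in control. Without the cells that carried a C1q UMI, 29, 43, 26 and 61 cells were left, and H2-Oa stood at -0.59, -0.50 and -0.39 and Ctss at -0.82, -0.90 and -0.70. Thus H2-Oa was no longer past 1.5-fold with anti-CTLA-4 or the combination, and came to it with anti-PD-1, while Ctss came past it in all 3. Without cells that carried a C1q or a Lyz2 UMI, 8, 9, 6 and 11 cells were left, and H2-DMb2 was at -1.31, -1.22 and -1.11 (34, 15, 14 and 22 UMIs) and H2-DMb1 at 0.75, 1.44 and 1.21 (11, 21, 30 and 37 UMIs). H2-DMb2 was then past the lower line and H2-DMb1 past the upper one in each treated library, on these few cells.

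Cluster 11 held cells with markers of type 1 and of type 2 conventional dendritic cells. Cells with a UMI of Xcr1 or Clec9a only, markers of cross-presenting type 1 dendritic cells, numbered 9 to 18 per library, and cells with Cd209a, Mgl2 or Clec10a only, markers of type 2, numbered 39 to 47. Ctss was lower in the type 1 cells in all 4 libraries, with log2 ratios of -1.34, -1.69, -1.82 and -1.90. H2-DMb2 was at -1.25, -1.31, -0.17 and -1.52, clearly lower there except with anti-CTLA-4, where the counting interval ran from -0.72 to 0.35. H2-Oa was lower in type 1 cells in the control library (-1.73, interval -2.72 to -0.87) and higher in the treated ones (1.00, 1.06 and 0.91). The control library's H2-Oa came mostly from type 2 cells (130 UMIs against 12), and in the treated libraries 28 to 35 UMIs came from type 1 and 34 to 75 from type 2 cells. Cells with neither set of markers (24 to 33 per library) or with both (2 to 5) were not compared. This split was made after the data were seen. Macrophage markers were present in cluster 11, as given above, and their part in these ratios was not tested.

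In the migratory cluster 17 the counts per library were small, and 9 of the 10 genes could be compared. Of these, 1 was past 1.5-fold in each comparison, higher, and it was another gene each time, where 33.6%, 36.0% and 38.5% of all genes were past it (18%, 17.4% and 20.2% higher, 15.6%, 18.6% and 18.3% lower). Ctss was higher with anti-PD-1 (1.06, 285 UMIs against 161), H2-DMb2 with anti-CTLA-4 (1.11) and H2-Oa with the combination (0.71, 30 UMIs against 17). The H2-DMb2 value turned to -0.72 when the top cell was left out. H2-Ab1 was higher with the combination (0.34, interval 0.21 to 0.47) while H2-Aa (-0.25) and H2-Eb1 (-0.38) were lower. These values turned on the cells kept. Without cells that carried a C1q or a Lyz2 UMI, 4, 6, 9 and 9 cells were left, and with the combination H2-Aa stood at 1.02, H2-Ab1 at 2.42 and Cd74 at 1.72. In the same cells H2-Ab1 (2.29) and Cd74 (1.78) were higher with anti-PD-1 and H2-Aa (1.18) with anti-CTLA-4. The 4 control cells held 33 UMIs of H2-Aa, 14 of H2-Ab1 and 57 of Cd74.

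The plasmacytoid cluster 16 had larger ratios to control than these classes. With anti-PD-1, 6 of 7 tested genes were lower past 1.5-fold, where 424 of 2642 genes (16%) were lower and 18.5% higher, 34.5% together. With the combination 5 of 8 were lower and 1 higher (H2-Oa, on 11 UMIs against 11), where 16.2% and 18% of genes were, 34.2% together. With anti-CTLA-4 none of 7 was past it, where 15.5% of genes were higher and 16.5% lower, 32.0% together. H2-Ab1 was at -1.55 with anti-PD-1 and -1.26 with the combination, H2-Eb1 at -1.76 and -1.42, H2-Aa at -1.32 in both, Cd74 at -1.04 and -0.82, and Ctss at -1.01 and -1.16. Macrophage genes were low in the same libraries. C1qa stood at 1728, 32.0, 670.3 and 54.8 CPM in that cluster and Lyz2 at 5741, 1184, 3534 and 995.4 CPM. The summed level of all 13 macrophage markers, each of them detected, was 15280, 4977, 10132 and 4091 CPM. Without cells that carried a C1q UMI, 21, 17, 16 and 22 cells were left, and Cd74 stood at 13779, 10742, 12050 and 12590 CPM and H2-Ab1 at 3669, 3191, 2410 and 2848 CPM. Among those cells H2-Ab1 was at -0.20 (-0.51 to 0.10) with anti-PD-1 and -0.37 with the combination, Cd74 at -0.36 and -0.13 (the last -0.27 to 0.01), and H2-Eb1 at -0.32 and 0.00. Of the chains, H2-Aa was past the line with anti-PD-1 (-0.67), and it was at -0.47 with the combination. With anti-CTLA-4, H2-Aa (-0.80, -1.17 to -0.44) and H2-Ab1 (-0.61, -0.96 to -0.26) came past the lower line, which neither had passed in the whole cluster. Without cells that carried a C1q or a Lyz2 UMI, 9, 7, 8 and 7 cells were left, and with the combination H2-Aa (-1.40), H2-Ab1 (-0.90), H2-Eb1 (-0.87) and Cd74 (-0.87) stayed past the lower line. H2-Aa (-0.99) and H2-Ab1 (-0.62) were past it with anti-CTLA-4 in those cells, and Cd74 with anti-PD-1 was at 0.05. The ratios of this cluster thus depended on which cells were kept, and few were left.

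Ratios between chain genes, which need no scaling, differed between libraries. In macrophages H2-Aa had 0.835, 0.80, 0.770 and 0.729 UMIs for each UMI of H2-Ab1, the 95% counting interval running from 0.828 to 0.842 in control and from 0.723 to 0.735 in the combination. The treated libraries were all below control, and the combination lowest. The same order held within cluster 1 (0.834, 0.824, 0.770 and 0.745), cluster 2 (0.803, 0.789, 0.721 and 0.661) and cluster 4 (0.816, 0.778, 0.761 and 0.716), but not in cluster 7 (0.887, 0.842, 0.884 and 0.897). T cell-like cells, in which class II stood at 4.23% to 8.0% of the macrophage level, had 0.913, 0.863, 0.750 and 0.707. H2-Eb1 over H2-Ab1 was 0.608, 0.532, 0.542 and 0.481 in macrophages, again highest in control and lowest in the combination. Median depth per cell was also highest in control and lowest in the combination among macrophages (4296 and 3253 UMIs), and its part in these ratios was not tested.

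In the migratory cluster the same ratios were of another size. H2-Aa over H2-Ab1 was 1.60, 1.76, 1.59 and 1.06 in cluster 17, above every macrophage library, and H2-Eb1 over H2-Ab1 was 1.05, 0.962, 0.988 and 0.636. H2-Ab1 was therefore the chain transcript that was lowest there relative to macrophages. Counted in UMIs, the order of the editor's beta chain genes was the reverse of that in macrophages. H2-DMb2 had 1.70, 1.54, 4.88 and 2.17 UMIs for each UMI of H2-DMb1 in cluster 17, 0.581, 0.396, 0.450 and 0.484 in cluster 11, and 0.0762, 0.0718, 0.116 and 0.0833 in macrophages. The 4.88 of cluster 17 with anti-CTLA-4 rests mostly on a single cell, which held most of the H2-DMb2 UMIs there, as given above. Since the 2 genes are near-identical, these ratios carry the uncertainty of the split of reads named above. By share of cluster 17 cells with a UMI, the genes overlapped over the libraries. H2-DMb1 was seen in 24.3% to 57.7% and H2-DMb2 in 24.3% to 46.2% of cells (3.2% to 21.1% and 5.4% to 26.9% after thinning).

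**Figure D5:**
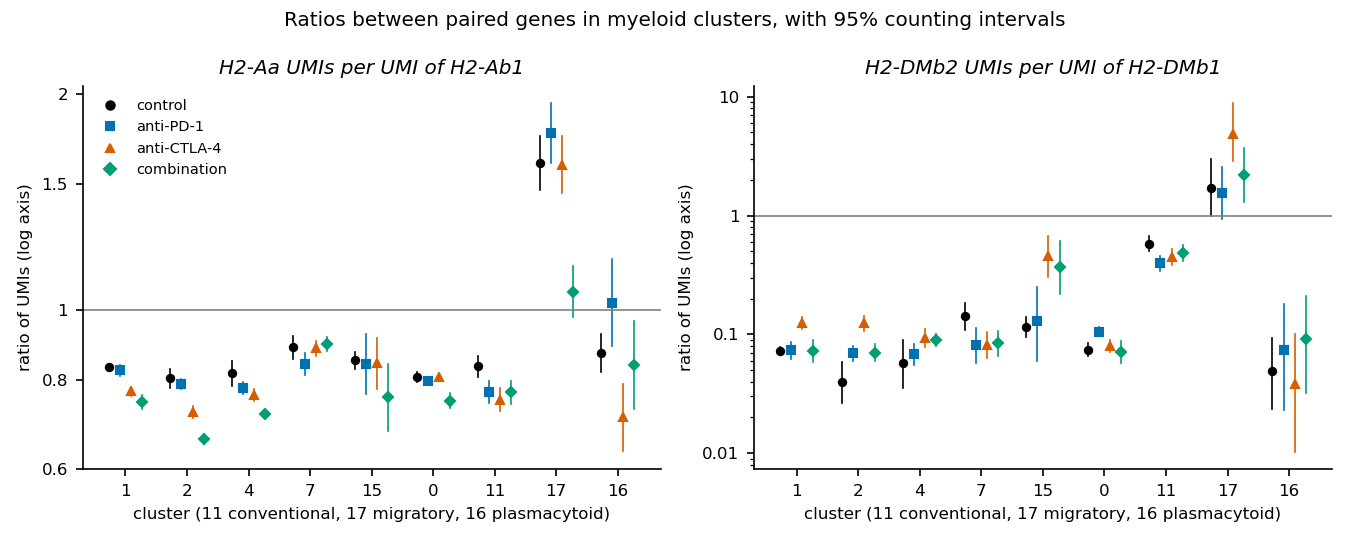
UMIs of H2-Aa for each UMI of H2-Ab1 (left) and of H2-DMb2 for each UMI of H2-DMb1 (right) in myeloid clusters, on log axes, with 95% intervals for counting error. Cluster 17 lies above 1 in all 4 libraries in both panels, and in clusters 1, 2 and 4 the left ratio is highest in control and lowest in the combination. In the right panel, the anti-CTLA-4 point of cluster 17 rests mostly on a single cell.

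Across the 19 clusters, the genes outside the list whose levels were most like the summed chains and Cd74 were Csf2ra (Pearson r 0.989), Aif1 (0.984), BC028528 (0.983), Cfp (0.976) and Spi1 (0.973), among 6654 genes with at least 500 UMIs. These are correlations of log2(CPM + 1) over 19 clusters that share the same 4 libraries, and are given as a description. Csf2ra encodes the alpha chain of the GM-CSF receptor and Spi1 the myeloid transcription factor PU.1. Of the members, H2-DMb2 (0.868) and H2-Oa (0.696) followed the sum least.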

How the data were processed

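Live CD45+ tumour cells of 4 libraries, 1 per group, were counted with a 3′ droplet kit, per the labels' protocols. The authors deposited raw counts of UMIs per gene and cell. The submitters' processing notes name Cell Ranger, Seurat and build mm10, with no versions. Cluster numbers and the cell list are the authors', and 2 listed cells had no column in the matrices. The authors' separate table of reclustered lymphoid cells was not used.

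UMIs were summed per class and library and divided by the class total. Printed log2 ratios of 2 libraries had nothing added to the counts, whereas means against macrophages, medians over genes, most values under alternatives and calls past 1.5-fold had 0.5 added to each count. A gene was tested for that line where the 2 sums held at least 20 counts together (in every library, for means against macrophages), and 95% intervals (exact conditional binomial for ratios, Clopper-Pearson for shares) cover counting error only. No p-value was computed. Shares of cells and per-cell loads used cells thinned to 1000 UMIs, and shallower cells were left out (163 of the macrophage class, 14 of cluster 11, 260 of the T cell-like). No doublet caller was run. The 109 barcodes found in more than 1 library were kept. All 10 genes were named, along with a list of 25 pathway genes (up to 5 with the largest ratio per comparison), the 5 genes most like the chains, and gauge and marker genes. The values of 1 gene of the pathway list are not reported here. The genes and lists were chosen with earlier results of these data known. The ratio code was checked on simulated counts. Python 3.11.15, numpy 2.4.6, scipy 1.17.1, pandas 2.3.3, matplotlib 3.10.9 and Biopython 1.88 were used. Alternatives covered scaling, thinning, the count minimum, subtraction of T cell-like levels, cells with markers of other types, class make-up and single cells, and the closing section gives their effect.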

Additional observations from a re-analysis of the deposited data

Results flagged for a closer look

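H2-Oa with anti-CTLA-4 lay above control in macrophages (log2 ratio 0.52) and below it in conventional dendritic cells (-0.74), with intervals for counting error that leave out 0 in both. Within macrophage clusters 4 and 7 it was below control as well (-0.35 and -0.38). With the combination the values were 0.41 and -0.68. Ctss with anti-CTLA-4 was 0.26 in macrophages and -0.44 in conventional dendritic cells. These were singled out because the same contrast went opposite ways in 2 classes of cells. The difference between the classes was not tested, since each class had 1 library per group. Macrophages held 194 UMIs of H2-Oa in control and 203 and 242 in these libraries, and cluster 11 held 185, 93 and 105.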

How the results depend on the processing

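No paired analysis was possible because each group is 1 library. Of 195 alternatives to 19 list values (medians over the 10 genes, the lymphoid gauge and the per-cell load), 179 stayed within the spread and 16 moved. Of the 195, 31 had the other sign (21 within the spread, 10 moved). Of 1758 alternatives to 159 values of single genes, 1636 stayed, 113 moved and 9 turned a value past 1.5-fold to the other sign. Among the rest, 135 within the spread and 16 that moved had the other sign. Settings that leave out B cell marker, C1q or C1q and Lyz2 cells, or 1 library, were chosen after seeing the data, and the cause of the moves was not tested. Without dendritic cells with a C1q or Lyz2 UMI, medians came to 1.78, 0.79 and 1.72 in cluster 17 (the treated libraries in the report's order), -0.0665 (anti-PD-1) in cluster 16 and -0.19 for cluster 11 against macrophages. Without those with a C1q UMI they came to 0.81, 0.98 and 0.65 in cluster 17 and -0.31 (anti-PD-1) in cluster 16. Size factors gave -0.27 in cluster 17 with anti-PD-1 and -0.0830 for cluster 11 against macrophages. The mean within clusters gave 0.0557 for macrophages with anti-PD-1, leaving out Cd3 cells gave 0.63 in cluster 17 with the combination, and leaving out the top cell gave -1.42 in cluster 16 with the combination. The lymphoid gauge, a mean of 6.97% of the macrophage level over T cell-like cells alone, was 2.80% without T cell-like cells carrying C1q or Lyz2 and 4.52% after thinning.

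Single genes past 1.5-fold changed sign as follows. H2-DMb2 in cluster 17 with anti-CTLA-4 came to -1.02 without Cd3 cells and -0.72 without the top cell. In cluster 16 with anti-PD-1, H2-DMb1 came to 0.32 after thinning, 0.14 without C1q or Lyz2 cells and 0.44 without C1q cells, and H2-Ab1 (0.0358) and Cd74 (0.0541) changed sign without C1q or Lyz2 cells. H2-Eb1 in cluster 16 with the combination came to 0.0023 without C1q cells, and Ciita in cluster 16 against macrophages to 0.11 without C1q or Lyz2 cells. Genes under 1.5-fold that moved to the other sign were mostly those of cluster 17 without C1q or Lyz2 cells, given in the report, where H2-DMa also came to 3.81 with the combination. Without C1q cells alone, H2-Ab1 (1.70), Cd74 (0.71) and H2-DMa (0.92) did so with anti-PD-1, H2-Ab1 (1.79) with anti-CTLA-4, and Cd74 (0.62) and H2-DMa (1.03) with the combination. In that cluster H2-DMb1 with anti-CTLA-4 came to 0.74 after subtraction of T cell-like levels and H2-DMa with the combination to 0.63 without Cd3 cells. In cluster 16, H2-DMa with anti-CTLA-4 came to -1.0 without C1q or Lyz2 cells and H2-DMb1 with the combination to 0.96 after thinning. Leaving out 1 library at a time, the medians against macrophages ranged from 0.0029 to 0.0991 in cluster 11, from -1.30 to -1.19 in cluster 17 and from -1.39 to -1.27 in cluster 16. Depth limits Ciita, H2-Oa and H2-DMb2 in clusters 16 and 17, which rest on few UMIs per library.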
